A study of Homo sapiens with 136 samples.

Results

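Ulixertinib is an ATP-competitive inhibitor of the kinases ERK1 and ERK2, and these libraries record what adding it to an autophagy inhibitor did to gene expression in PANC-1, a human cell line from pancreatic ductal adenocarcinoma. The 4 ulixertinib libraries of PANC-1, chosen by the treatment and cell line in their labels, are 4 of 68 PANC-1 libraries; the series holds 68 more from a further pancreatic cancer line, AsPC-1. Both lines were grown for 24 h and treated for 24 h with 1 of 2 autophagy inhibitors, either without a kinase inhibitor (called alone here) or with 1 of 14 inhibitors of RAF, MEK or ERK. RNA was then read by PLATE-Seq, a method that makes barcoded sequencing libraries from cells lysed in multi-well plates. The autophagy inhibitors were hydroxychloroquine, a weak base that keeps lysosomes from digesting what autophagy delivers, and Compound 19, an inhibitor of Vps34 (labelled VSP34I), the lipid kinase that starts the autophagosome.

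Ulixertinib with hydroxychloroquine gave 2 PANC-1 libraries and ulixertinib with the Vps34 inhibitor gave 2, with 1 of each on plate A and 1 of each on plate B. The references were 12 PANC-1 libraries treated with an autophagy inhibitor alone (6 per autophagy inhibitor) and 12 treated with the other 3 ERK inhibitors, AZD0364, ravoxertinib and SCH772984 (4 each). Each combination of autophagy inhibitor and plate therefore holds 1 ulixertinib library, 3 alone libraries and 3 libraries of other ERK inhibitors, which are called matched below. Every library carries an autophagy inhibitor, and neither untreated cells nor a kinase inhibitor without an autophagy inhibitor were analysed here. Each drug was given at the concentration that left cells 80% viable after 48 h as a single agent. The concentrations themselves are not in the labels, so a difference between drugs cannot be told apart from a difference in dose. The labels do not say whether the replicates were separate cultures, so p values measure the spread between these libraries, which may be technical.

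ERK1 and ERK2 are the last kinases of the RAS, RAF, MEK and ERK cascade, which is kept active in most pancreatic cancers. They phosphorylate transcription factors of the ETS and AP-1 families and so switch on early genes, cyclin D1 and a set of inhibitors of the cascade itself, among them the Sprouty proteins and the dual-specificity phosphatases. A loss of these feedback transcripts is widely used as a readout of ERK inhibition. Mitotic genes follow later in the cell cycle under the MuvB, B-MYB and FOXM1 complexes, and amino acid shortage or protein stress acts through the separate transcription factor ATF4.

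The ulixertinib libraries held 2615351 to 4742047 counts, and the 12 alone libraries 2392000 to 4977640. Total counts, the share of mitochondrial messenger RNA, the share of ribosomal protein messenger RNA and the share of the 10 most abundant genes were each compared with both references. None of the 8 exact permutation tests within matched sets passed (smallest possible p 0.00390625, adjusted p 0.984 in all 8, two-sided). The pair of ulixertinib libraries correlated at 0.956 with hydroxychloroquine and at 0.947 with the Vps34 inhibitor over log2 counts. The epithelial keratins were present, with KRT18 at 263 and 288 CPM (counts scaled to a common, TMM-normalised library size) with hydroxychloroquine and 217 and 191 CPM with the Vps34 inhibitor. All 8 acinar and islet markers, 9 of 12 immune markers, 4 of 7 endothelial markers and 2 of 7 fibroblast markers were at 0 in all 4 ulixertinib libraries. COL1A1, a fibroblast marker that PANC-1 cells themselves express, was present at a median of 65.5 CPM over the 68 libraries. In bulk RNA, fewer cells of a kind and less RNA per cell cannot be told apart.

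Against the autophagy inhibitors alone, all tested ERK output genes, most DNA replication genes and nearly the whole list of mitotic genes fell with ulixertinib, and most ATF4 targets rose. The lists and their members were chosen with earlier results of these data known, so counts of members called describe these lists only. Of 12627 genes tested, 848 rose and 995 fell, which is 6.72% and 7.88% (edgeR quasi-likelihood test, Benjamini-Hochberg adjusted p under 0.05, both autophagy inhibitors weighted equally). All 4 ulixertinib libraries lay above all 3 matched alone libraries for 4.71% of the genes and below them for 5.8%. Without the ulixertinib library with the Vps34 inhibitor on plate A the count of called genes was 1176 in place of 1843, and without that with hydroxychloroquine on plate A it was 1201. CPM values for the 4 ulixertinib libraries are given throughout in the order hydroxychloroquine plate A, hydroxychloroquine plate B, Vps34 inhibitor plate A and Vps34 inhibitor plate B. Fold changes are on the log2 scale ± standard error, and adjusted p values are from the edgeR test named here.

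The list of ERK output genes holds 10 transcripts that report the activity of the pathway, of which DUSP4 and EPHA4 were below the filter on low counts. All 8 that were tested fell, with a median log2 fold change of −1.64 beside −0.02 over all genes tested, and all 8 lay below every matched alone library in each of the 4 ulixertinib libraries. SPRY4, a Sprouty protein that restrains signalling from receptors to RAS, was at 3.96, 5.64, 2.25 and 5.49 CPM with ulixertinib. In the 12 alone libraries SPRY4 ran from 30.1 to 61.2 CPM with a median of 42.5. The groups did not overlap, and the log2 fold change of SPRY4 (chr5:142310427-142326455, GRCh38) was −3.38 ± 0.25 (adjusted p 5.01e-15).

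DUSP6, the phosphatase that removes the activating phosphates from ERK, was close to the limit of detection with ulixertinib, at 0.417, 1.33, 0.225 and 0.366 CPM. These values come from 8 counts in all 4 libraries together. Alone libraries held 11.7 to 22.8 CPM of DUSP6 (median 18.4), so that no library overlapped. The log2 fold change of DUSP6 (chr12:89347232-89353271, GRCh38) was −5.15 ± 0.53 (adjusted p 1.91e-10), the largest fall among the ERK output genes. DUSP4, a nuclear phosphatase of the same family, was listed at 0 in all 4 ulixertinib libraries and at 0 to 1.05 CPM in the alone libraries.

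Among the transcription factors and effectors of the list, ETV5, an ETS factor of the PEA3 group, was at 7.93, 8.95, 13.5 and 6.22 CPM against 22.5 to 39.7 CPM alone (median 29). The log2 fold change of ETV5 was −1.68 ± 0.22 (adjusted p 6.88e-08). Its relative ETV4 was scarce, at 0.366 to 0.675 CPM with ulixertinib and 1.01 to 5.33 CPM alone, and changed by −1.90 ± 0.65 (adjusted p 0.0391). The call for ETV4 was lost when any 1 ulixertinib library was left out (adjusted p 0.0834 to 0.152), and without any 1 of 3 alone libraries (adjusted p 0.0511 to 0.0645). PHLDA1, an early gene that follows ERK activity closely, was at 79.3, 89.5, 56.5 and 64.1 CPM against 165 to 241 CPM alone (median 195). Its log2 fold change was −1.45 ± 0.10 (adjusted p 1.23e-15; chr12:76025447-76033932, GRCh38), with no overlap.

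CCND1 encodes cyclin D1, which carries growth signals into the cell cycle. It was at 131, 108, 92.3 and 85.7 CPM with ulixertinib and at 186 to 427 CPM alone (median 259), a log2 fold change of −1.35 ± 0.19 (adjusted p 5.35e-07). EPHA2, an ephrin receptor kinase under ERK control, changed by −1.53 ± 0.28 (adjusted p 6.96e-05). SPRY2 changed by −1.59 ± 0.42 (adjusted p 0.00639). It is the least even of the 8, since its 4 ulixertinib values ran from 0.626 to 4.64 CPM and overlapped the alone range of 3.19 to 12.8 CPM. Without the hydroxychloroquine library of plate A, SPRY2 no longer passed (−1.18, adjusted p 0.105).

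**Figure D1:**
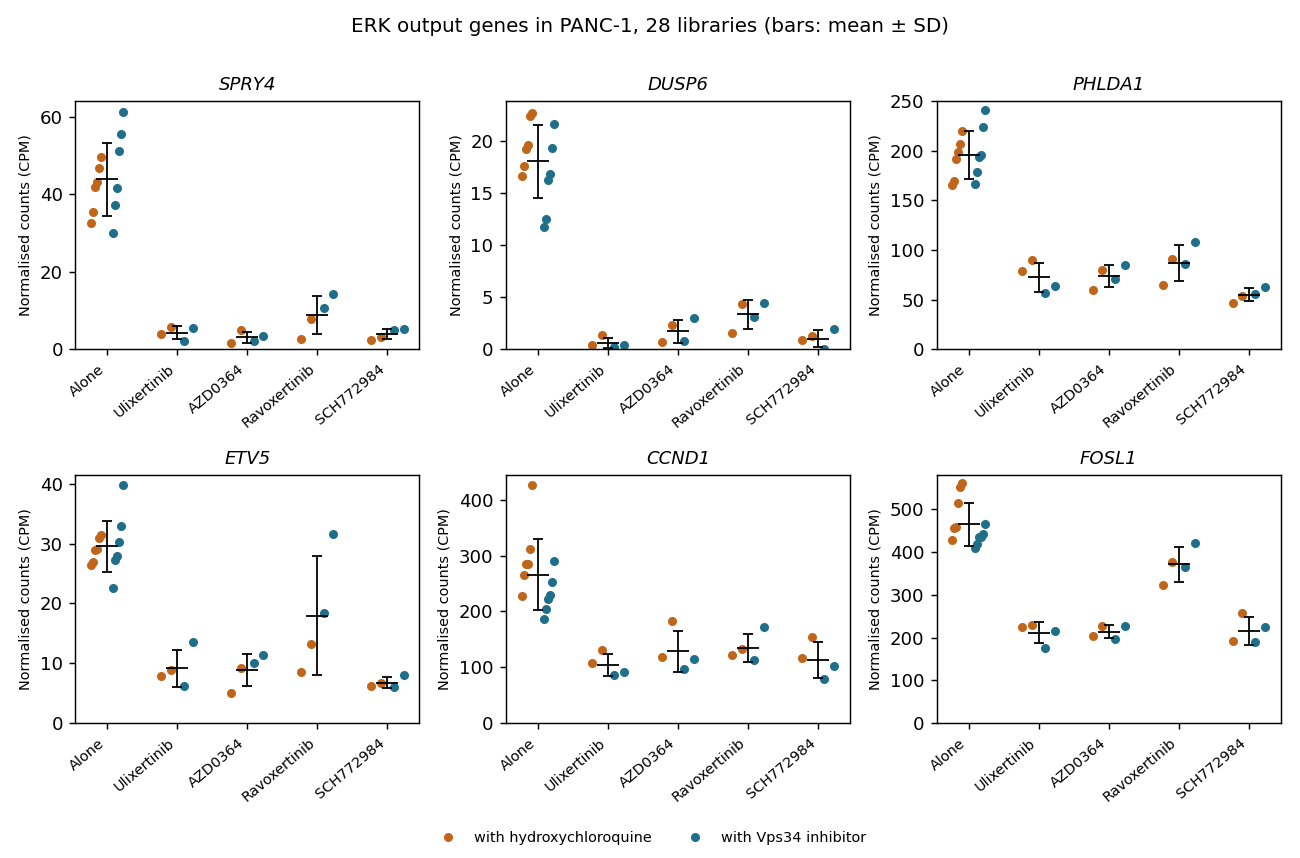
Level in CPM of SPRY4, DUSP6, PHLDA1, ETV5, CCND1 and FOSL1 in the 28 PANC-1 libraries treated with an autophagy inhibitor alone or with an ERK inhibitor. Points are libraries, coloured by autophagy inhibitor, and bars are the mean ± SD of each group; the 4 ulixertinib libraries lie below the 12 alone libraries in all 6 panels and within or near the range of the other ERK inhibitors.

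Outside that list, 7 of 14 other feedback genes fell and none rose (median −0.77). SPRED1 and SPRED2, membrane inhibitors of RAF activation, fell by 1.13 and 1.41 on the log2 scale (adjusted p 3.52e-05 and 0.00015). Of 25 immediate early genes, 8 fell and 2 rose (median −0.35). FOSL1, the AP-1 subunit FRA-1, was at 225, 230, 176 and 216 CPM against 409 to 560 CPM alone (median 449), and its log2 fold change was −1.14 ± 0.10 (adjusted p 2.58e-12). ATF3, which also answers to cell stress, rose by 1.60 ± 0.25 (adjusted p 3.52e-06). None of 16 genes for RAS and the MAPK kinases themselves fell and 5 rose, among them MAPK3, which encodes ERK1, at 0.84 ± 0.18 (adjusted p 0.000805).

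Several of the largest changes belonged to neither feedback nor cell cycle. MAP2, a microtubule protein of neurons, was at 109, 115, 105 and 75.4 CPM with ulixertinib and at 24.7 to 38.7 CPM alone (median 29.2), a log2 fold change of 1.74 ± 0.10 (adjusted p 9.11e-19). MXD4, a partner of MAX that opposes MYC, was at 103, 61.4, 45 and 82 CPM against 6.15 to 34.7 CPM alone (median 20.7), a log2 fold change of 1.90 ± 0.19 (adjusted p 1.67e-10). TM4SF1, a tetraspanin-like surface protein of carcinoma cells, was at 210, 269, 233 and 235 CPM against 649 to 793 CPM alone (median 760). It changed by −1.62 ± 0.08 (adjusted p 5.93e-20). None of these 3 genes overlapped between the groups. AGR2, a secretory protein folding factor, fell by 1.42 and KRT18 by 1.07 on the log2 scale (adjusted p 1.57e-14 and 3.08e-15).

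Genes of mitosis fell almost as a whole list. Of 52 genes of the G2 and M phases, 49 fell and none rose, with a median log2 fold change of −1.20. For 44 of the 52, each ulixertinib library was below all 3 matched alone libraries. The 3 that were not called were FOXM1, the transcription factor of many genes in the list, at −0.91, the phosphatase CDC25B at −0.01, and CKS1B at −0.07.

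KIF20A, the kinesin that places the cytokinesis machinery at the midzone, was at 9.6, 17.2, 8.78 and 21.2 CPM with ulixertinib and at 38 to 59.2 CPM alone (median 49). All 4 libraries were below all 12, and the log2 fold change of KIF20A (chr5:138178719-138187715, GRCh38) was −1.82 ± 0.18 (adjusted p 3e-11). AURKB, the chromosome passenger kinase that corrects attachment of chromosomes to the spindle, was at 15.2, 22.9, 4.5 and 6.96 CPM against 25.6 to 53.5 CPM alone (median 34.5). Its change was −1.81 ± 0.18 (adjusted p 3.29e-11), again without overlap.

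NEK2, a kinase that splits the centrosomes, was at 57.4, 48.4, 15.1 and 21.2 CPM against 72.1 to 129 CPM alone (median 89.2; chr1:211658657-211675630, GRCh38). The log2 fold change of NEK2 was −1.56 ± 0.12 (adjusted p 1.21e-14). NCAPG, a condensin subunit, was at 76.4, 55, 29.3 and 22.3 CPM against 120 to 167 CPM alone (median 129) and changed by −1.71 ± 0.12 (adjusted p 1.62e-15). For NEK2 and NCAPG both Vps34 inhibitor libraries were lower than both hydroxychloroquine libraries, while their alone libraries were near one another. MKI67, the proliferation antigen Ki-67, was at 92.2, 58.7, 36.5 and 59.7 CPM against 147 to 317 CPM alone (median 204), a change of −1.81 ± 0.21 (adjusted p 7.44e-09). IQGAP3, a scaffold protein of dividing cells, had a fitted change of −2.73 ± 0.74 (adjusted p 0.00917), but 1 hydroxychloroquine alone library on plate A held 1815 CPM and the median of the 12 was 52.7. Without that library the change of IQGAP3 was −1.41 (adjusted p 0.000495), and with it the call was lost when the ulixertinib library of plate A with hydroxychloroquine or with the Vps34 inhibitor was left out (adjusted p 0.0681 and 0.0851).

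Many mitotic promoters carry a cell cycle genes homology region (CHR), the hexamer that the MuvB complexes bind. The letters TTTGAA, searched on both strands from 250 bases before to 50 after the start site in RefSeq promoters of GRCh38.p14, occurred in 30 of the 43 mitotic genes with a window (69.8%). They occurred in 13.5% of the 9994 tested genes with a window and in 18.2% of all 27305 gene symbols with a window of the same length. A gene was counted if any of its windows held the letters. A match of letters is a description of the promoter and not evidence of binding. The 120 bases upstream of the start site of 3 members that fell are shown to place the hexamer, in capitals, in the promoter (its last base lies 60, 24 and 24 bases before the start), each on the plus strand: CDC20 at chr1:43358861-43358980, CCNB2 at chr15:59105026-59105145 and PLK1 at chr16:23678769-23678888.
CDC20: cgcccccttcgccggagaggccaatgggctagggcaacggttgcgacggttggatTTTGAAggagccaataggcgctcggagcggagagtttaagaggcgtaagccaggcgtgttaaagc
CCNB2: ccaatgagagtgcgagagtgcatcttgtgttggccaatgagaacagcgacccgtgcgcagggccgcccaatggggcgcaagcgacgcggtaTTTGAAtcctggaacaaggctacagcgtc
PLK1: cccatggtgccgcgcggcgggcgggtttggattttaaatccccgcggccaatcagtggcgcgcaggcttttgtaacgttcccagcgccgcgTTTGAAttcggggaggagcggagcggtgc
CDC20, the activator of the anaphase promoting complex, was at 45.7, 66.7, 31.1 and 28.2 CPM against 78.5 to 139 CPM alone (log2 fold change −1.35 ± 0.11, adjusted p 9.2e-14). CCNB2, a B-type cyclin, was at 29, 39.1, 12.8 and 15.4 CPM against 49.9 to 74.1 CPM alone (−1.51 ± 0.14, adjusted p 1.56e-11). PLK1, the polo-like kinase of mitotic entry, was at 24.8, 24.5, 7.43 and 19 CPM against 25.1 to 49.9 CPM alone (−1.09 ± 0.19, adjusted p 2.21e-05). These 3 genes were chosen for their promoter after their values were seen. All 3 were below every alone library, PLK1 with hydroxychloroquine by the least.

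The DNA replication genes of G1 and S fell less evenly than the mitotic ones. Of 45 tested, 35 fell and none rose (median −0.92), and 27 were below all matched alone libraries in each ulixertinib library. RRM2, the regulated subunit of ribonucleotide reductase, was at 66.1, 58, 39.8 and 39.2 CPM against 135 to 202 CPM alone (median 172), a log2 fold change of −1.77 ± 0.11 (adjusted p 2.52e-17; chr2:10120698-10131419, GRCh38). PCNA, the sliding clamp of DNA polymerase, fell by 1.14 on the log2 scale (adjusted p 1.47e-11). The CHR letters were found in 5.13% of 39 replication genes with a window.

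Of 21 cyclins, CDK inhibitors and their regulators outside these lists, 9 fell and none rose (median −0.53). CDC25A, the phosphatase that frees CDK2, changed by −1.38 ± 0.21 and SKP2, the ubiquitin ligase subunit that removes p27, by −1.08 ± 0.17 (adjusted p 3.1e-06 and 7.09e-06). CDKN1A encodes p21, an inhibitor of CDK2 that ERK signalling can induce. It was at 25.9, 20.6, 14.2 and 12.4 CPM with ulixertinib against 26.8 to 44.6 CPM alone (median 38.8), lower in all 4 libraries than in all 12. The log2 fold change of CDKN1A (chr6:36676460-36687339, GRCh38) was −1.10 ± 0.17 (adjusted p 1.76e-06). CDKN1B, which encodes p27, was not called (0.11).

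**Figure D2:**
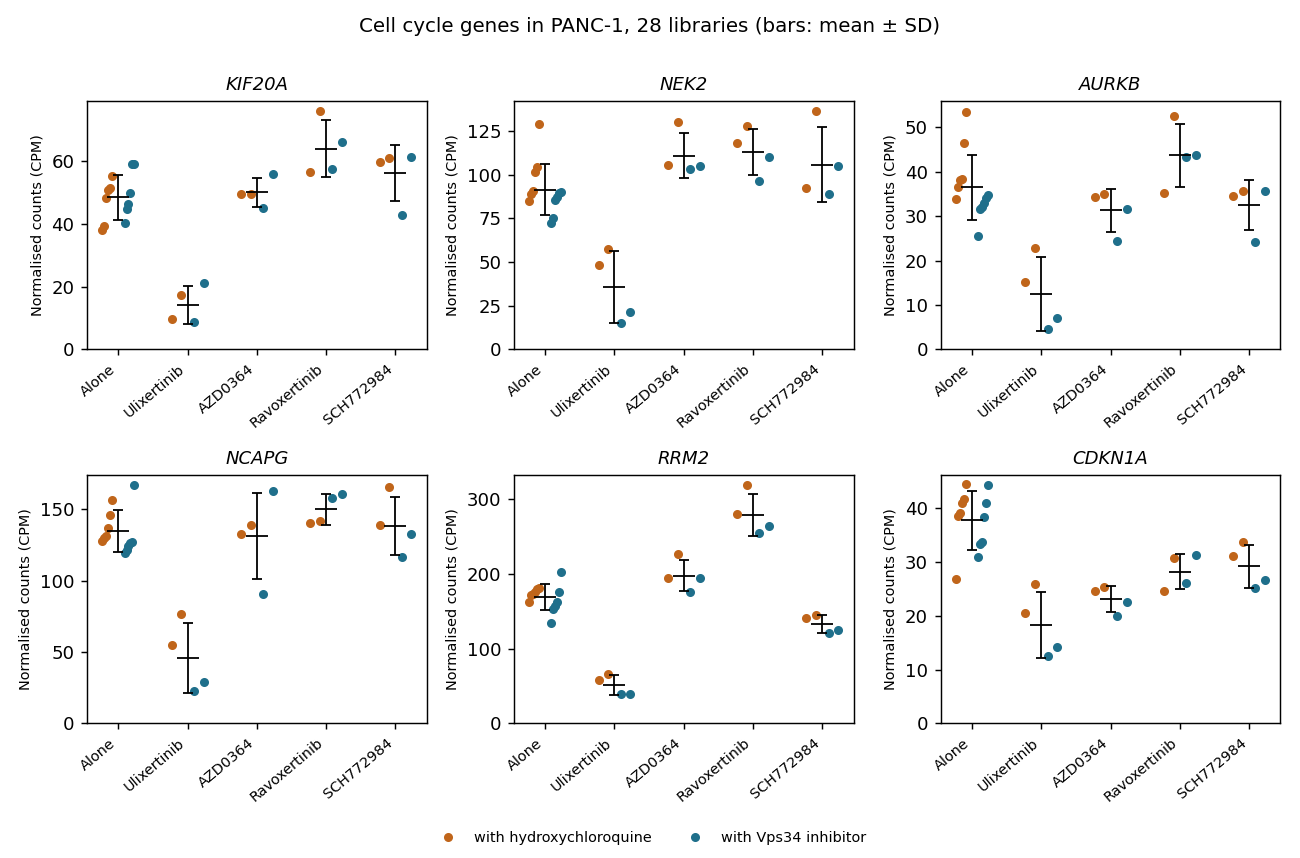
Level in CPM of KIF20A, NEK2, AURKB, NCAPG, RRM2 and CDKN1A in the same 28 PANC-1 libraries, points coloured by autophagy inhibitor and bars as mean ± SD. The 4 ulixertinib libraries are below all 12 alone libraries in every panel, and below all 12 libraries of the other ERK inhibitors for KIF20A, NEK2, AURKB, NCAPG and RRM2; for CDKN1A the 2 sets overlap.

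Targets of ATF4, the factor that adjusts amino acid supply and the stress response, moved in the opposite direction. Of 40 tested, 28 rose and 3 fell (median 0.70), and 24 were above all matched alone libraries in each ulixertinib library. CHAC1, a glutathione-degrading enzyme, was at 91 and 87.9 CPM with hydroxychloroquine, where the 6 alone libraries ran from 12.3 to 21 CPM. With the Vps34 inhibitor it was at 147 and 125.9 CPM, and the 6 alone libraries ran from 35.1 to 49.7 CPM. The alone level differed between the autophagy inhibitors and ulixertinib was higher within each, with a log2 fold change of CHAC1 (chr15:40952962-40956519, GRCh38) of 2.07 ± 0.13 (adjusted p 1.47e-16).

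TRIB3, a pseudokinase that ATF4 and CHOP induce, was at 44.4 and 55.4 CPM against 9.49 to 23.6 CPM for hydroxychloroquine alone, and at 129 and 93.7 CPM against 23.1 to 41.3 CPM for the Vps34 inhibitor alone. Its log2 fold change was 1.76 ± 0.16 (adjusted p 2.34e-12; chr20:362835-397559, GRCh38). ASNS, asparagine synthetase, was at 118 and 156 CPM against 22.3 to 44.2 CPM, and at 196 and 261 CPM against a median of 110 CPM. TRIB3 and ASNS did not overlap with their alone libraries under either autophagy inhibitor, and ASNS changed by 1.47 ± 0.12 (adjusted p 3.24e-13; chr7:97852118-97872542, GRCh38). PSAT1, which makes phosphoserine, rose by 1.30 and the transfer RNA synthetases SARS1 and GARS1 by 0.95 and 1.01 (adjusted p 6.08e-16, 4.18e-12 and 6.66e-08).

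The 3 members that fell were GDF15, a stress cytokine that ERK also induces (−1.30 ± 0.24, adjusted p 7.84e-05), ATF5 (−0.66 ± 0.19, adjusted p 0.00996) and the amino acid transporter SLC38A2 (−0.42 ± 0.14, adjusted p 0.0263). SLC38A2 fell with the Vps34 inhibitor (−0.76, adjusted p 0.00841) and was at −0.09 with hydroxychloroquine (adjusted p 0.868). ATF5 and SLC38A2 were named after their values were seen.

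ATF4 binds a composite element (CARE) together with C/EBP proteins. The letters TGATGNAAN, on either strand of the same promoter windows, occurred in 13 of 33 ATF4 targets with a window (39.4%). They occurred in 2.74% of tested genes with a window and in 4.45% of all gene symbols with one. The 120 bases next to the start of ASNS (chr7:97872409-97872528, minus strand) and 120 bases farther upstream of CHAC1 (chr15:40953226-40953345, plus strand; RefSeq, GRCh38.p14) show that element, in capitals, in opposite orientations and at different distances from the start.
ASNS: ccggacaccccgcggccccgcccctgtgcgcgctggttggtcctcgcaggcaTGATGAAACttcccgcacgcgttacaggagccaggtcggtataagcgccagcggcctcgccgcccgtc
CHAC1: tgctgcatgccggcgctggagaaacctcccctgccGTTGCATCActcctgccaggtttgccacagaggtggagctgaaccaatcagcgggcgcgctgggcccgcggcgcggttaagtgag
In ASNS the last base of the element lies 60 bases before the start, and in CHAC1, where it reads on the reverse strand, 202 bases before it.

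Of 26 genes for protein folding in the endoplasmic reticulum, 4 rose and none fell (median 0.19). HSPA5, the chaperone BiP, was at 607, 554, 731 and 869 CPM against 257 to 345 CPM alone (median 299), with no overlap (log2 fold change 1.17 ± 0.09, adjusted p 6.37e-15; chr9:125234853-125241330, GRCh38). HERPUD1, a part of the degradation machinery of that compartment, was at 36.9, 17.2, 18.2 and 15.7 CPM against 3.9 to 11.7 CPM alone (log2 fold change 1.40 ± 0.18, adjusted p 4.75e-08). The 22 other members were not called. HMOX1, haem oxygenase 1, which NRF2 and other stress factors induce, was at 70.9 and 54 CPM against 12.5 to 22.6 CPM for hydroxychloroquine alone. With the Vps34 inhibitor it was at 204 and 143 CPM against 38.2 to 63.3 CPM, and its log2 fold change was 1.87 ± 0.19 (adjusted p 3.55e-10). The NRF2 list as a whole had 2 of 27 members higher and 1 lower (median 0.13).

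Lysosome and autophagy genes, the compartment that the shared inhibitors act on, changed in smaller numbers. Of 50 lysosome genes, 11 rose and 3 fell (median 0.25), led by CTSD, the protease cathepsin D, at 52.6, 76.9, 67.3 and 71.8 CPM against 24.5 to 51.5 CPM alone (1.00 ± 0.16, adjusted p 9.34e-06). Of 37 autophagy genes, 8 rose and 2 fell (median 0.18), with the cargo receptors CALCOCO2 and OPTN at 0.66 and 0.81 (adjusted p 3.61e-05 and 7.66e-05). Of 55 genes of MYC and ribosome biogenesis, 9 fell and none rose (median −0.16). In the lipid synthesis list 2 of 32 rose, the desaturase SCD (0.93 ± 0.10, adjusted p 1.06e-09) and ACACA (0.50 ± 0.13, adjusted p 0.00557), and none fell. Over all genes tested 6.72% rose and 7.88% fell. ACACA no longer passed without the ulixertinib library with the Vps34 inhibitor on plate A (0.39, adjusted p 0.113) or without that with hydroxychloroquine on plate A (0.45, adjusted p 0.0582). The lipid list differed by autophagy inhibitor. With hydroxychloroquine 3 of 32 rose and none fell (median 0.05). With the Vps34 inhibitor 1 rose and 4 fell (median −0.24).

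Under each autophagy inhibitor most ERK output genes and most mitotic genes fell, and a few mitotic genes fell further with the Vps34 inhibitor. With hydroxychloroquine 414 genes rose (3.28%) and 433 fell (3.43%), and with the Vps34 inhibitor 362 rose (2.87%) and 514 fell (4.07%). Each comparison has 2 ulixertinib libraries and 6 alone libraries of its own. Leaving out the hydroxychloroquine library of plate A or B left 269 and 398 calls in place of 847, and leaving out the Vps34 inhibitor library of plate A or B left 355 and 556 in place of 876. Of the mitotic genes 31 fell with hydroxychloroquine (median −0.81) and 45 with the Vps34 inhibitor (median −1.56). ATF4 targets had medians of 0.72 (23 higher, 1 lower) and 0.67 (20 higher, 2 lower), and ERK output genes of −1.55 (6 of 8 lower) and −1.80 (7 of 8 lower). MAP2 and MKNK2, a kinase that phosphorylates the translation factor eIF4E, rose in both (MKNK2 by 1.36 ± 0.10 and 1.26 ± 0.10, adjusted p 1.01e-13 and 7.47e-13).

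Tested directly, the ulixertinib effect was higher with the Vps34 inhibitor than with hydroxychloroquine for 10 genes (0.0792%) and lower for 19 (0.15%). The ERK output genes and ATF4 targets held none of these 29 genes. Of the 19 with a lower effect, 9 were mitotic genes, and the median difference over the 52 was −0.66. NEK2 changed by −0.92 with hydroxychloroquine and by −2.20 with the Vps34 inhibitor (difference −1.28, adjusted p 0.00378). CDK1, the kinase that drives mitosis, was at 46.7 and 59.7 CPM with ulixertinib and hydroxychloroquine and at 16.7 and 20.1 CPM with ulixertinib and the Vps34 inhibitor. Its alone libraries ran from 76.6 to 99.5 CPM and from 58.4 to 79.9 CPM, and the changes were −0.71 and −1.95 (difference −1.24 ± 0.22, adjusted p 0.0048). NCAPG changed by −1.07 and −2.35 (difference −1.27 ± 0.22, adjusted p 0.00378). The other 6, named after their values were seen, were TTK, AURKA, BUB1B, KIF2C, SPC25 and CCNB1, with differences from −0.884 to −1.4.

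Each of these calls rests on few libraries. Without the Vps34 inhibitor library of plate A the 29 genes became 8, without that of plate B 14, and without the hydroxychloroquine library of plate A or B 15 and 11. NEK2 then lost its call without the Vps34 inhibitor library of plate A (−0.94, adjusted p 0.168), and CDK1 did so there (adjusted p 0.0954) and without the hydroxychloroquine library of plate B (adjusted p 0.0567). NCAPG lost it without the hydroxychloroquine library of plate A (adjusted p 0.0751) and without the Vps34 inhibitor library of plate B (adjusted p 0.054).

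TACC1 and OXA1L were high in 1 library, the Vps34 inhibitor library of plate A, at 1199 and 1532 CPM, where the other 3 ulixertinib libraries held 28.2 to 35.3 CPM of TACC1 and 135 to 225 CPM of OXA1L. Without it the differences were −0.24 and 0.50, and neither passed (adjusted p 0.974 and 0.88).

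Against the other 3 ERK inhibitors, 47 of 52 mitotic genes, 21 of 45 replication genes and 15 of 32 lipid synthesis genes were lower with ulixertinib, 21 of 40 ATF4 targets were higher, and none of the ERK output genes was called. Of the 12627 genes, 447 were higher (3.54%) and 524 lower (4.15%), and the 4 ulixertinib libraries lay above all matched libraries of other ERK inhibitors for 3.28% of genes and below them for 3.51%. Without the ulixertinib library with hydroxychloroquine on plate A 625 genes were called in place of 971, and without that with the Vps34 inhibitor on plate A 635. Each ERK inhibitor was also compared with the same 12 alone libraries. These comparisons share their controls, so their values are given side by side and no overlap between them is drawn.

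None of the 8 ERK output genes was called against the mean of the other 3 drugs (median −0.12), and none lay beyond all matched libraries in all 4. SPRY4 was at 2.25 to 5.64 CPM with ulixertinib and at 1.66 to 14.2 CPM with the others (median 4.2). The difference was −0.12 ± 0.25, with a 95% interval from −0.63 to 0.39 (adjusted p 0.861). PHLDA1 differed by 0.03 ± 0.09, with a 95% interval from −0.16 to 0.21 (adjusted p 0.929). The intervals of CCND1 (−0.62 to 0.10), ETV5 (−0.55 to 0.32) and SPRY2 (−0.77 to 0.94) also contained 0. DUSP6 had the largest difference, −1.81 ± 0.63 (95% interval −3.09 to −0.53), which did not pass after adjustment (adjusted p 0.0694), at 0 to 4.49 CPM in the other libraries. That of EPHA2 was −0.57 (−1.11 to −0.03, adjusted p 0.22). A p value that misses the threshold does not show that the drugs act alike.

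Drug by drug, with p values adjusted over all genes and the 3 pairs together, ERK output with ulixertinib was nearest to AZD0364 and SCH772984 in number of calls. Against ravoxertinib 4 of the 8 genes were lower, SPRY4 by 0.94, DUSP6 by 2.70, EPHA2 by 1.07 and ETV5 by 0.85 on the log2 scale (adjusted p 0.0357, 0.00573, 0.0344 and 0.033). Against AZD0364 none was called, and against SCH772984 1 was, PHLDA1, which was higher by 0.39 (adjusted p 0.0369). Against alone, the median of the 8 was −1.64 with ulixertinib (8 lower), −1.88 with AZD0364 (8 lower), −1.14 with ravoxertinib (5 lower) and −2.02 with SCH772984 (8 lower). These 3 further drugs had 287 (2.27%), 227 (1.8%) and 363 (2.87%) genes higher than alone and 375 (2.97%), 324 (2.57%) and 506 (4.01%) lower.

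The mitotic genes separated ulixertinib from all 3. Of 52, 47 were lower than with the other ERK inhibitors (median −1.24), and 45 were below all matched libraries in each of the 4 ulixertinib libraries. In the pairs, 46 were lower than with AZD0364, 49 than with ravoxertinib and 47 than with SCH772984 (medians −1.19, −1.27 and −1.26). The share of all genes lower was 2.81%, 4.43% and 2.66%, and of all genes higher 1.77%, 2.58% and 1.63%. Against alone, AZD0364 called none of the 52 in either direction (median −0.03), ravoxertinib 3 higher (median 0.14) and SCH772984 1 higher and 2 lower (median 0.05).

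KIF20A ran from 8.78 to 21.2 CPM with ulixertinib and from 42.7 to 75.8 CPM with the other ERK inhibitors (median 57), a difference of −2.03 ± 0.18 (adjusted p 3.03e-12) without overlap. Against alone KIF20A changed by 0.04, 0.39 and 0.20 with AZD0364, ravoxertinib and SCH772984, none of them called. NEK2 was at 89.1 to 136.4 CPM with the others (median 105) and differed by −1.82 ± 0.12 (adjusted p 3.78e-16). AURKB and NCAPG differed by −1.78 ± 0.18 and −1.76 ± 0.12 (adjusted p 1.09e-10 and 1.21e-15), each below all 12 libraries of the other drugs.

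Replication genes were less uniform among the drugs. Of 45, 21 were lower than with the other 3 (median −0.61) and 13 were below all matched libraries. The pairs gave 16 lower than with AZD0364, 28 than with ravoxertinib and 8 than with SCH772984. Against alone, 13 fell with AZD0364 (median −0.37), none fell and 1 rose with ravoxertinib (median −0.04), and 21 fell with SCH772984 (median −0.48). RRM2, at 121 to 319 CPM with the others (median 195), differed by −1.97 ± 0.11 (adjusted p 2.12e-18). It rose by 0.72 with ravoxertinib and fell by 0.35 with SCH772984 against alone (adjusted p 1.68e-07 and 0.0191), and was at 0.23 with AZD0364 (adjusted p 0.191). Of the cyclins and CDK inhibitors 7 of 21 were lower, CDKN1A among them (−0.59 ± 0.16, adjusted p 0.0132).

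**Figure D3:**
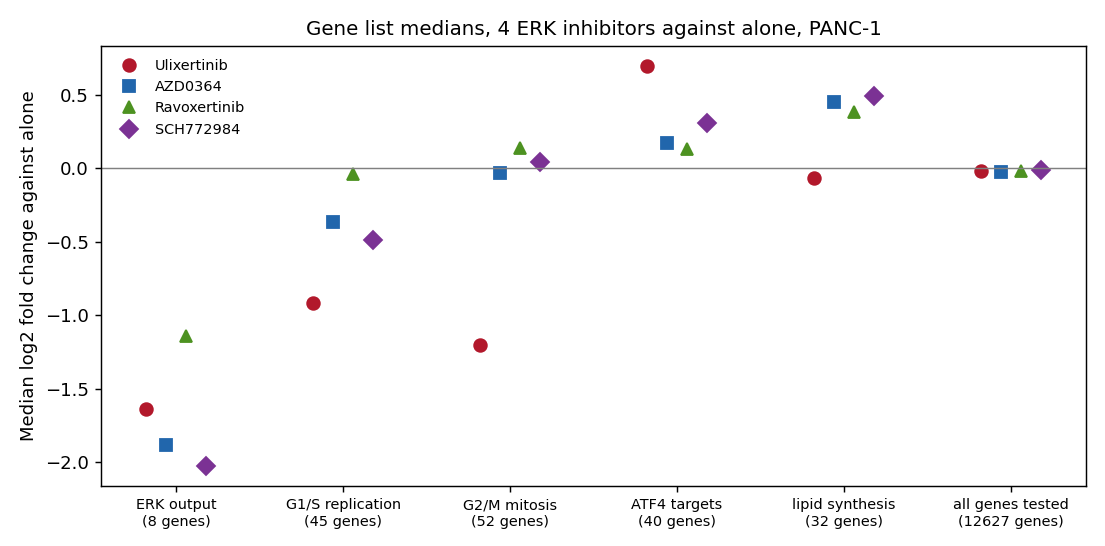
Median log2 fold change against the autophagy inhibitors alone of the ERK output, G1/S, G2/M, ATF4 target and lipid synthesis lists and of all genes tested, for each of the 4 ERK inhibitors in PANC-1. The 4 comparisons share the 12 alone libraries; ERK output is negative with each drug, while the G2/M median is −1.20 with ulixertinib and between −0.03 and 0.14 with the others.

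Of 40 ATF4 targets, 21 were higher than with the other ERK inhibitors and 1 was lower (median 0.53), and 14 were above all matched libraries. The list gave 16 higher than with AZD0364, 16 than with ravoxertinib and 12 than with SCH772984, and 1 lower in each pair. Without the ulixertinib library with hydroxychloroquine on plate B the 21 became 14. Against alone, 6 rose with AZD0364 (median 0.17), 4 with ravoxertinib (0.13) and 12 with SCH772984 (0.31), and 2 fell with each.

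CHAC1 was at 16 to 27.3 CPM with the other ERK inhibitors and hydroxychloroquine and at 54.5 to 102 CPM with the Vps34 inhibitor, below the ulixertinib libraries of each. It differed by 1.52 ± 0.14 (adjusted p 4.63e-12). TRIB3 was at 9.51 to 20.9 and 29.5 to 70.4 CPM with the others and differed by 1.70 ± 0.16 (adjusted p 1.03e-11), again without overlap within an autophagy inhibitor. ASNS differed by 0.96 ± 0.12 (adjusted p 1.28e-07), but only 3 of 4 ulixertinib libraries were above all matched ones. HSPA5, at 284 to 362 and 370 to 645 CPM with the others, differed by 0.83 ± 0.09 (adjusted p 6.27e-10), and HERPUD1 by 0.95 ± 0.18 (adjusted p 0.000148). Without the hydroxychloroquine library of plate A that of HERPUD1 was 0.53 (adjusted p 0.113). GDF15, which fell with all 4 drugs against alone, was higher by 0.76 ± 0.22 with ulixertinib than with the others (adjusted p 0.0214).

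Part of the lipid synthesis list was lower with ulixertinib than with the other ERK inhibitors. Against alone, 19 of 32 lipid synthesis genes rose with AZD0364, 10 with ravoxertinib and 17 with SCH772984 (medians 0.45, 0.38 and 0.49), beside 2 with ulixertinib (median −0.07). In the direct test 15 of 32 were lower with ulixertinib and none higher (median −0.40), and 12 were below all matched libraries in all 4. The pairs gave 13, 10 and 12 lower against AZD0364, ravoxertinib and SCH772984. Without the ulixertinib library with the Vps34 inhibitor on plate B the 15 became 8.

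ACAT2, which makes the acetoacetyl-CoA that enters the mevalonate pathway, was at 135 and 130 CPM with ulixertinib and hydroxychloroquine. The alone libraries held 109 to 165 CPM and the other ERK inhibitors 206 to 351 CPM. With the Vps34 inhibitor it was at 49.1 and 34.8 CPM, against 54.5 to 79.9 CPM alone and 102 to 134 CPM with the others. Ulixertinib thus stood within or below the alone range and below all the other ERK libraries, with a difference of −1.24 ± 0.14 (adjusted p 1.67e-09; chr6:159760328-159779055, GRCh38). Against alone ACAT2 was at −0.34 with ulixertinib (adjusted p 0.0686) and rose by 1.01, 0.82 and 0.88 with AZD0364, ravoxertinib and SCH772984. MSMO1, a sterol demethylase, and IDI1, an isomerase of the mevalonate pathway, differed by −0.65 ± 0.10 and −0.86 ± 0.14 (adjusted p 7.51e-06 and 1.26e-05). SCD, at 0.93 against alone and 0.02 against the other ERK inhibitors (adjusted p 0.963), was among the 17 of 32 not called in the direct test.

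**Figure D4:**
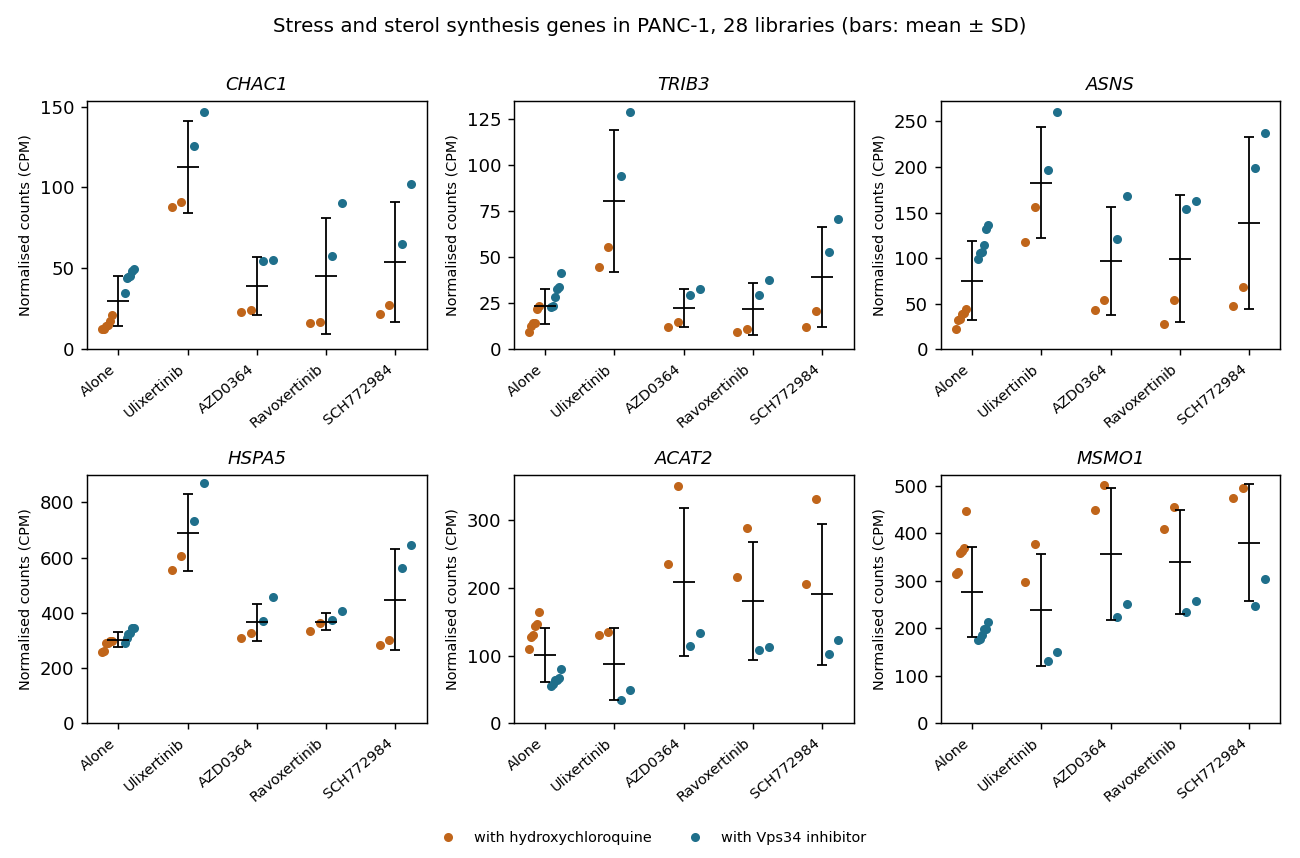
Level in CPM of CHAC1, TRIB3, ASNS, HSPA5, ACAT2 and MSMO1 in the 28 PANC-1 libraries treated with an autophagy inhibitor alone or with an ERK inhibitor, points coloured by autophagy inhibitor and bars as mean ± SD. Within each autophagy inhibitor the ulixertinib libraries are the highest for CHAC1 and TRIB3 and are below every library of the other ERK inhibitors for ACAT2 and MSMO1.

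Single genes of other groups also set ulixertinib apart. HMOX1 was higher by 1.04 ± 0.19 (adjusted p 0.000185) and MKNK2 by 0.69 ± 0.08 (adjusted p 1.67e-09). AGR2 was lower by 0.98 on the log2 scale (adjusted p 9.58e-10) and below all matched libraries in all 4. Of lysosome genes 5 of 50 were higher and none lower, and of autophagy genes 4 of 37 were higher, ULK1, a kinase that starts autophagy, among them (0.76 ± 0.17, adjusted p 0.0015), and 1 was lower.

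Summed over the list, the mitotic genes took 3360 and 3724 CPM in the ulixertinib libraries with hydroxychloroquine and 1953 and 2407 CPM in those with the Vps34 inhibitor. The lowest of the other 64 PANC-1 libraries, which cover 13 further kinase inhibitors and the alone groups, held 4612 CPM, so that all 4 ulixertinib libraries were below every other. Replication genes summed to 1509, 1385, 850 and 910 CPM, and only the Vps34 inhibitor libraries were below every other library, the lowest of which held 1327 CPM. ATF4 targets summed to 3679, 3656, 4906 and 4495 CPM. This was not outside the other libraries, since trametinib, a MEK inhibitor, gave 4172 to 5112 CPM. ERK output genes summed to 254, 244, 187 and 176 CPM, beside 168 to 218 CPM with trametinib. A sum leans on the most abundant members, and these sums are a description with no test.

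**Figure D5:**
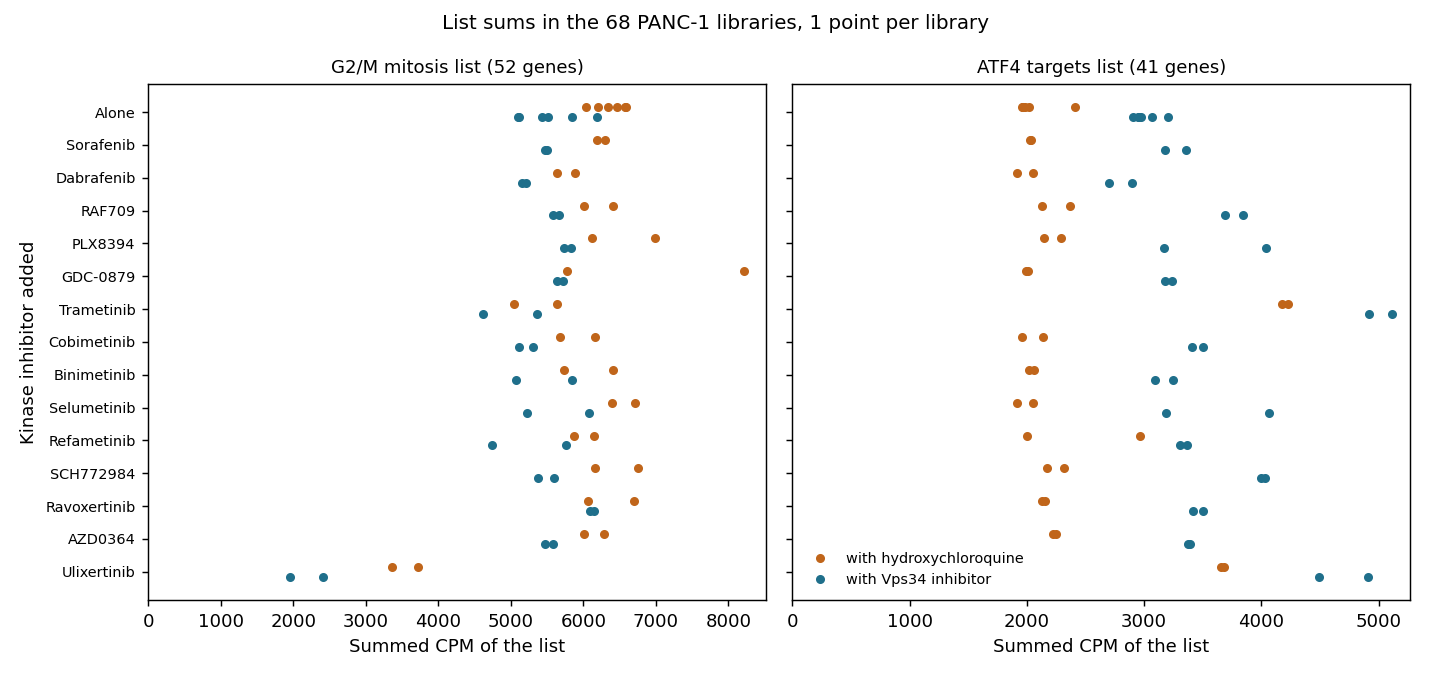
Summed CPM of the G2/M list and of the ATF4 target list in all 68 PANC-1 libraries, grouped by kinase inhibitor, points coloured by autophagy inhibitor. The 4 ulixertinib libraries, at 1953 to 3724 CPM, are the lowest of all for G2/M. For ATF4 targets they run from 3656 to 4906 CPM. Those with the Vps34 inhibitor lie in the range reached by trametinib, and those with hydroxychloroquine lie below it.

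In AsPC-1, ulixertinib was measured in the same layout, with 4 libraries against 12 alone, on plates of that line. The test of the difference between the lines, in 1 fit of both with plate within line, called 496 of 13960 genes with a higher effect in PANC-1 (3.55%) and 476 with a lower one (3.41%). Of ERK output genes 1 of 10 differed, DUSP6 (difference −1.92, adjusted p 0.0438). Its mean in PANC-1 with ulixertinib, 0.519 CPM, was close to the limit of detection. DUSP4 had PANC-1 means of 0 CPM with ulixertinib and 0.204 CPM alone. EPHA4 had means of 0.501 to 0.886 CPM over both lines, so the test says little about either gene. SPRY4 changed by −3.43 in AsPC-1 and −3.35 in PANC-1 (adjusted p 1 for the difference). Of ATF4 targets 17 of 40 had a higher effect in PANC-1 and none a lower one (median difference 0.84). Of mitotic genes 10 of 52 had a lower effect in PANC-1 and none a higher one (median difference −0.39), and 42 were not called.

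KIF20A changed by 0.16 ± 0.16 in AsPC-1 and by −1.80 ± 0.18 in PANC-1 (difference −1.96 ± 0.24, adjusted p 7.83e-10). Other mitotic genes described above had lower means in AsPC-1 with ulixertinib than alone. AURKB was at 13.2 against 26.7 CPM, NCAPG at 50.5 against 90.2 and MKI67 at 57.3 against 107. For NEK2 the AsPC-1 means were 63.3 and 67.7 CPM. These means are given without a test. RRM2 changed by −1.98 and −1.74, a difference of 0.24 that was not called (adjusted p 0.5). HSPA5 changed by 0.03 and 1.19 (difference 1.16 ± 0.15, adjusted p 1.5e-08), and CHAC1, scarce in AsPC-1 at a mean of 2.74 CPM alone, by 0.43 and 2.09 (difference 1.67, adjusted p 0.00197). ACAT2 rose by 0.89 in AsPC-1 and was at −0.32 in PANC-1 (difference −1.21, adjusted p 4.3e-05).

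Of the 6 genes with the clearest differences by adjusted p, 3 in each direction, AGR2 rose by 3.32 in AsPC-1 and fell by 1.40 in PANC-1 (difference −4.72 ± 0.23, adjusted p 1.58e-31), KRT18 rose by 0.87 and fell by 1.05 (difference −1.92), and TM4SF1 rose by 0.28 and fell by 1.60 (difference −1.88). FOSL1 fell by 2.96 in AsPC-1 and by 1.11 in PANC-1 (difference 1.84 ± 0.17, adjusted p 8.77e-15). DCBLD2, a membrane receptor, was at −1.89 and −0.16 (difference 1.72), and PMEPA1, an inhibitor of TGF-beta signalling, at −1.02 and 0.44 (difference 1.46). Each line had its own plates, and the doses were not given, so the line cannot be told apart from either.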

How the data were processed

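The authors deposited gene counts, whole numbers that are not normalised, for every library. Kallisto 0.44.0 and GRCh38 appear in the submitters' processing notes; what each was used for, which annotation was used and how transcripts were summed into genes is not stated there. Of 25435 symbols in the table, 4605 were at 0 throughout. Gene positions are from GENCODE 29 on GRCh38. No library was left out.

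Line, treatment and plate came from the titles. All 68 PANC-1 libraries were fitted together in 30 treatment groups with plate as a term (edgeR 4.0.16 with TMM scaling, the filterByExpr filter applied by group and a robust quasi-likelihood fit, 37 residual degrees of freedom), so that the spread is estimated over all groups. Contrasts weight both autophagy inhibitors equally. Tests are two-sided with Benjamini-Hochberg adjustment over all genes of a contrast, over 3 pairs jointly for single drugs, and 0.05 as the threshold. The standard error is the log2 fold change divided by the root of the F statistic. CPM uses TMM library sizes, and compares a gene between libraries, not one gene with another. The line difference came from 1 fit of both lines (13960 genes, 74 residual degrees of freedom).

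Replicate numbers follow the plates. Deviations of same-plate libraries from their group means correlated little (median 0.0544 over 435 pairs of groups, range −0.147 to 0.249, 23.9% over 0.1), while the plate term was called for 2082 genes, so plate stayed in the fit because the titles give it. No libraries were duplicates (highest correlation of any pair 0.969).

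Named genes are the ERK output list, up to 3 members of each other list with the smallest adjusted p, the 8 largest rises and falls (mean log2 CPM 5 or more) that lie beyond all matched libraries, and, in other comparisons, the first 3 genes by adjusted p in each direction. Genes outside this rule are given as list members, and were picked after their values were seen. Some genes chosen this way are left out of the text. The members and lists were chosen with earlier results of these data known. Alternatives were DESeq2 1.42.0, its size factors, no filter, no plate term, the 16 compared libraries, each plate, each comparator drug left out and each library left out. Scripts were tested on simulated data. The software was R 4.3.3 and, under Python 3.11.15, SciPy 1.17.1, NumPy 2.4.6 and pandas 2.3.3.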

Additional observations from a re-analysis of the deposited data

Results flagged for a closer look

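The ulixertinib effect differed between the autophagy inhibitors by a test of the difference itself for 29 genes. Those with the smallest adjusted p were, among those reported here, OXA1L (2.60) and TACC1 (4.05), higher with the Vps34 inhibitor, and NEK2 (−1.28), NCAPG (−1.27) and CDK1 (−1.24), lower with it, all as differences of log2 fold changes. OXA1L and TACC1 rest on 1 high library, without which their differences were 0.50 and −0.24. Of the 6 genes named for this comparison, 0 kept their call under every setting.

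The effect differed between PANC-1 and AsPC-1 by the same kind of test for 972 genes. PMEPA1 (1.46), FOSL1 (1.84) and DCBLD2 (1.72) had the higher effect in PANC-1 with the smallest adjusted p, and KRT18 (−1.92), AGR2 (−4.72) and TM4SF1 (−1.88) the lower.

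Among the alone libraries, 80 groups of 6 values were tested for a library far from the others, and 9 passed, where chance gives about 5% of groups. The value is the gap to the nearest library as a share of the group's range, against a limit of 0.625. With hydroxychloroquine alone, the lowest library stood apart for CDKN1A (0.659) and the highest for IQGAP3 (0.993) and OXA1L (0.861). With the Vps34 inhibitor alone, the lowest stood apart for AURKB (0.656), and the highest for NCAPG (0.846), IQGAP3 (0.863), PSAT1 (0.63), TACC1 (0.676) and ANKRD1 (0.949).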

How the results depend on the processing

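The count of genes called against alone was 521 on plate A only and 344 on plate B only, in place of 1843, and against the other ERK inhibitors 165 and 83 in place of 971. These fits hold fewer libraries. The share of calls that were higher was 46.0% in both, and on plate A and B alone 27.3% and 30.1% against the other ERK inhibitors, and 34.3% on plate B against alone. Without the plate term (no replicate block) the counts were 1588 against alone, 667 with hydroxychloroquine, 728 with the Vps34 inhibitor, 21 for their difference and 811 against the other ERK inhibitors. DESeq2 called 48 genes in place of 29 for the difference between autophagy inhibitors. Leaving out 1 library gave 1176 to 1849 calls against alone, 269 to 849 with hydroxychloroquine, 355 to 879 with the Vps34 inhibitor, 8 to 29 for their difference, 625 to 964 against the other ERK inhibitors, 353 to 483 against AZD0364, 596 to 661 against ravoxertinib, 326 to 435 against SCH772984 and 658 to 769 between the lines. The lowest against AZD0364 and SCH772984 were without the Vps34 inhibitor library of plate A, in place of 578 and 542. Over all settings 27 to 49 mitotic genes were lower than alone and 26 to 49 lower than with the other ERK inhibitors, 13 to 29 and 2 to 21 ATF4 targets were higher, and 1 to 16 lipid genes were lower than with the other ERK inhibitors, the fewest on plate B only. For replication genes, 15 to 36 were lower than alone. Against the other ERK inhibitors 1 to 26 replication genes were lower and 0 to 1 higher. Of the named genes, 37 of 91 called against alone and 18 of 80 against the other ERK inhibitors kept direction and call under every setting, 0 of 6 did for the difference between autophagy inhibitors, and 6 of 6 did in each remaining comparison. Directions turned for ERK output genes near 0 against the other ERK inhibitors, where the cause was not tested. PHLDA1 was at −0.15 without SCH772984 and −0.060 on plate B, and from −0.00595 to 0.055 with 1 library left out, below 0 without the plate A library of ulixertinib with either autophagy inhibitor (−0.00561 with the Vps34 inhibitor). SPRY2 was at −0.14 with 16 libraries, −0.0807 without AZD0364, −0.0342 without SCH772984 and −0.99 on plate A, and from −0.73 to 0.49 with 1 library left out, lowest without ulixertinib with hydroxychloroquine on plate B. SPRY4 was at 0.29 without ravoxertinib and from −0.35 to 0.071 with 1 library left out, highest without ulixertinib with the Vps34 inhibitor on plate A. ETV5 was at 0.25 without ravoxertinib, 0.0089 on plate A and from −0.46 to 0.088 with 1 library left out, highest without ulixertinib with the Vps34 inhibitor on plate B. The TACC1 difference between autophagy inhibitors ran from −0.24, without its 1 high library, to 5.05. Depth limits scarce genes such as DUSP6 and ETV4.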

Other observations

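Against the autophagy inhibitors alone, ulixertinib in PANC-1 changed genes of the cell death and histone lists in both directions; over all genes tested, 6.72% rose and 7.88% fell. Of 14 BCL2 family genes 3 rose and 2 fell. BMF, a BH3-only protein that binds BCL2, was scarce, at 1.88, 1.99, 2.7 and 2.93 CPM with ulixertinib and at 0 to 0.867 CPM alone (edgeR log2 fold change 2.96 ± 0.55, adjusted p 9.21e-05). Of 14 histone genes 3 rose and 4 fell. H2AX, the variant phosphorylated at DNA breaks, was at 26.9, 42.8, 13.7 and 16.8 CPM, below all matched alone libraries (34.9 to 72.8 CPM), and changed by −1.32 ± 0.17 (edgeR adjusted p 5.35e-08).

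Of 22 cytosolic heat shock genes 2 rose and 2 fell, and HSPA8, the constitutive HSP70 chaperone, was at 775 and 876 CPM with hydroxychloroquine against 1333 to 1511 CPM alone. With the Vps34 inhibitor HSPA8 was at 1108 and 1138 CPM against 1080 to 1449 CPM, an overlap. Of 27 glycolysis and hypoxia genes none rose and 3 fell, and of 37 interferon response genes 2 rose and 3 fell. VIM, the mesenchymal filament vimentin, was at 1607, 2676, 1608 and 2322 CPM against 2103 to 3352 CPM alone and below the matched libraries of its own plate and autophagy inhibitor in all 4 (−0.43 ± 0.07, edgeR adjusted p 1.39e-05). Both ulixertinib libraries of plate A were below both of plate B, and without the plate term VIM did not pass (−0.41, edgeR adjusted p 0.265). Among 9 secreted factors 1 rose and 3 fell, with VGF, a secreted neuropeptide precursor, at −1.72 (edgeR adjusted p 2.05e-10). LDHA, lactate dehydrogenase A, was at 564, 614, 482 and 424 CPM against 633 to 875 CPM alone (−0.52 ± 0.10, edgeR adjusted p 7.58e-05).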
